A study of Homo sapiens with 16 samples.

Results

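Chromatin accessibility after 0.5 h of dTAG47, a degrader of FKBP-tagged proteins, was compared with accessibility under DMSO in Rh30 cells that carry a tagged PAX3-FOXO1. Rh30 is an established human line of alveolar rhabdomyosarcoma, a muscle-lineage tumour, and every group used here came from Rh30 cells whose PAX3-FOXO1 carries an FKBP tag. The comparison holds 4 of the 16 ATAC-seq libraries of the series, 2 given DMSO and 2 given 500 nM dTAG47 for 0.5 h, and covers all 40844 regions of the count table for the experiment labelled 6211. Libraries of 1 h and 2 h from the same experiment, and of 2, 4 and 24 h with their own DMSO from a separate experiment labelled 6086, are used to follow the same regions. ATAC-seq counts transposase insertions, so a region's level reflects how open its chromatin is across the bulk population. Fewer cells with a region open and less opening per cell cannot be told apart. The labels give no duration for DMSO, do not name untagged cells given dTAG47, and do not say whether libraries came from separate cultures or whether the tagged line is a single clone. Effects of fusion loss and other effects of dTAG47 cannot be told apart here, and p-values measure the spread between libraries only.

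PAX3-FOXO1 is a chimeric transcription factor that joins the DNA-binding domains of PAX3 to the activation domain of FOXO1. It is known to bind distal enhancers in fusion-positive rhabdomyosarcoma, alongside the muscle factors MYOD1 and MYOG and the oncoprotein MYCN. An FKBP-tagged protein can be removed within a short time by a dTAG molecule, which bridges the tag to the ubiquitin ligase receptor cereblon. The comparison asks which open regions differ at the earliest time sampled.

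The 4 libraries held 10707995 to 13559279 reads in regions. The 0.5 h libraries had a Spearman correlation of 0.976 with each other across regions. DMSO library A stood apart: its correlation with DMSO library B was 0.960, while DMSO library B reached 0.972 and 0.971 with the 0.5 h libraries, and library A 0.957 and 0.958. Levels are given in CPM (counts per TMM-scaled library total, on the usual CPM scale). Changes are log2 ratios of 0.5 h to DMSO, and a region is said to have fallen or risen only at an adjusted p under 0.05 in the quasi-likelihood test of edgeR, adjusted by Benjamini-Hochberg over all regions. Regions are placed on hg19, and each 6211 region given by position below is 401 bp wide in the 6211 table, so their levels can be compared. Gene names beside regions are general knowledge of the hg19 gene map, given as background. No hg19 annotation was used, so no distance, count or test rests on them, and the muscle identity of the cells was not checked against marker genes.

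After 0.5 h, 3 regions had fallen (0.00735% of the 40844 tested) and 0 had risen (0%). At an unadjusted p under 0.001, 141 regions were lower (0.345% of all) and 6 were higher (0.0147%). At an unadjusted p under 0.05 the counts were 1771 lower (4.34%) and 952 higher (2.33%), and DESeq2 called 2 lower and 0 higher. That split depended on the scaling and on DMSO library B. With TMM on the upper 25% of regions by level, 1383 were lower and 1306 higher at an unadjusted p under 0.05, and 113 and 10 at 0.001. Without DMSO library B the counts were 2641 and 2550 at 0.05, and 236 and 250 at 0.001. With DESeq2 they were 663 and 215 at 0.05, and 32 and 0 at 0.001. The changes were small. The fitted log2 change had a median of 0.00 and an SD of 0.15 over all regions. The scaling centres most regions near 0, so a shift shared by all regions would not show. Counted by size, 51 regions were at least 1.5-fold lower against 4 that were at least 1.5-fold higher, and 0 reached 2-fold.

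**Figure D1:**
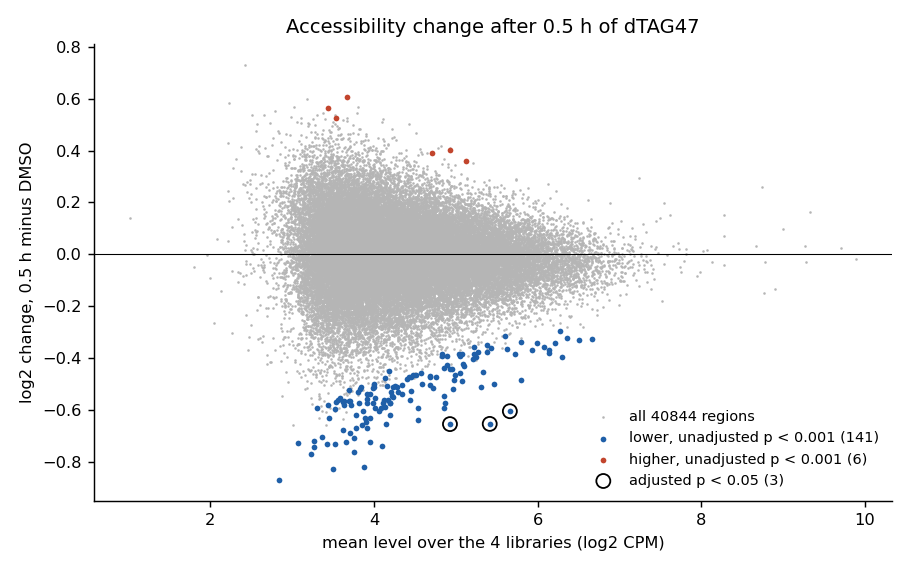
Each point is 1 of the 40844 regions, with its mean level over the 4 libraries (log2 CPM) on the x axis and its log2 change, 0.5 h minus DMSO, on the y axis. The 141 lower regions with an unadjusted p under 0.001 (blue) outnumber the 6 higher ones (red), and the 3 regions with an adjusted p under 0.05 (circled) all lie below 0.

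The region with the lowest p was chr6:44628192-44628592, in the interval between CDC5L, a splicing and cell cycle factor, and SUPT3H, a subunit of the SAGA transcription complex. It had 62.3 and 62.0 CPM in DMSO libraries A and B, and 39.4 and 42.4 CPM in the 0.5 h libraries. Both treated libraries thus lay well below both controls, and accessibility had fallen by 34.3% (log2 change -0.61, SE 0.08, adjusted p = 0.00856). By 2 h in the same experiment it was at 18.1 and 17.7 CPM, a further log2 change from 0.5 h of -1.19 (adjusted p = 5.5e-07). Its counterpart in experiment 6086 had 42.5 and 38.4 CPM in DMSO, and it had 12.7 and 12.8 CPM at 2 h and 4.34 and 3.61 CPM at 24 h.

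At chr1:36071004-36071404, within PSMB2 and beside TFAP2E, levels were 55.3 and 51.3 CPM in DMSO and 32.2 and 35.7 CPM at 0.5 h. PSMB2 encodes a proteasome subunit and TFAP2E a transcription factor of the AP-2 family. The groups did not overlap, and the loss came to 36.5% (log2 change -0.65, SE 0.10, adjusted p = 0.015). The third region, chr7:25817794-25818194, had 39.1 and 36.9 CPM in DMSO against 24.4 and 23.9 CPM at 0.5 h, also 36.5% lower (log2 change -0.66, SE 0.10, adjusted p = 0.0258). These libraries again split cleanly by treatment. From 0.5 to 2 h the log2 change was a further -1.05 at the first (adjusted p = 1.7e-05) and -0.65 at the second (adjusted p = 0.0034). From 0.5 to 1 h none of the 3 passed the threshold, nor did any region as lower (0%), with further log2 changes of -0.17 on chromosome 6, -0.20 on chromosome 1 and -0.21 on chromosome 7 (adjusted p = 0.89, 0.88 and 0.89).

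**Figure D2:**
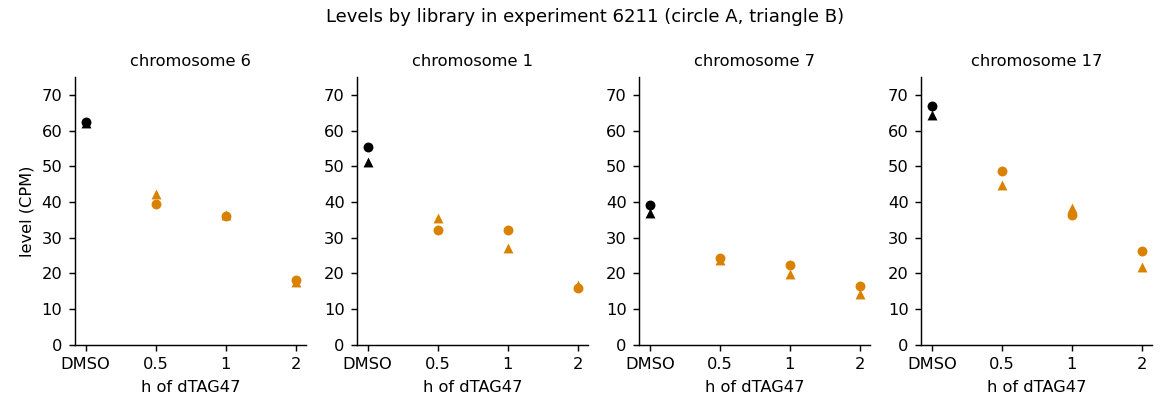
Level in CPM (y axis) of 4 regions in the 8 libraries of experiment 6211, by hours of dTAG47 (x axis), with circles for library A and triangles for library B. The first 3 panels are the regions that had fallen at 0.5 h and the fourth is the region in PIPOX: in each panel both 0.5 h libraries lie below both DMSO libraries and above both 2 h libraries.

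The calls needed DMSO library A and both 0.5 h libraries, since leaving out any of them gave 0 calls. Leaving out DMSO library B gave 105 lower and 109 higher, the 3 regions among them. In these fits the log2 change of the 3 regions stayed between -0.73 and -0.56, while the adjusted p ran from 0.0030 to 1.00.

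Within 100 kb of the region on chromosome 6, 12 of 17 other regions were lower than DMSO at 0.5 h, as were 50.4% of all regions. The 17 had a median log2 change of -0.13 (range -0.31 to 0.22), and 0 passed the threshold. At an unadjusted p under 0.05, 4 of the 17 were lower, against 4.34% of all regions. By 2 h, 5 of the 17 had fallen against the same DMSO libraries, where 4.92% of all regions had. The nearest, chr6:44628926-44629326, started 734 bp away and went from 16.4 and 14.5 CPM to 11.9 and 13.4 CPM (log2 change -0.30, adjusted p = 0.73). It was among those that had fallen by 2 h (log2 change -0.63, adjusted p = 0.0081). A region that started 2336 bp away, with a level as high as that of the region that fell, had 71.3 and 59.8 CPM in DMSO and 54.8 and 58.7 CPM at 0.5 h (log2 change -0.21, adjusted p = 0.70). Around the region on chromosome 1, 4 of 7 neighbours were lower, with a median log2 change of -0.04. Around the one on chromosome 7 it was 3 of 5 with a median of -0.04. Both counts are near the share of all regions that were lower. At an unadjusted p under 0.05, 1 of the 7 and 1 of the 5 were lower. The 1 on chromosome 1 started 6488 bp away and had a log2 change of -0.36 (adjusted p = 0.53). None of these neighbours passed the threshold either.

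Behind these 3, the next 9 regions by p that met the naming rule were all lower and just missed the threshold in the edgeR test. With DESeq2 they were far from it, with adjusted p from 0.29 to 0.66. To be named, a region needed 30 or more reads on average and no overlap between the groups. Before the count minimum, 19.2% of all regions lay apart as lower and 16.9% as higher. At chr17:27378228-27378628, in PIPOX, a peroxisomal oxidase gene known as a target of the fusion, levels were 66.9 and 64.3 CPM in DMSO and 48.8 and 44.9 CPM at 0.5 h (log2 change -0.49, SE 0.09, adjusted p = 0.0599). This was the most accessible of the 12 lower regions named by p, and both treated libraries lay below both controls, as the rule requires. At chr2:71857686-71858086, in DYSF, which encodes the muscle membrane-repair protein dysferlin, levels were 35.3 and 35.8 CPM in DMSO and 22.9 and 24.8 CPM at 0.5 h (log2 change -0.57, SE 0.10, adjusted p = 0.0562).

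Proportionally larger differences were measured at less accessible regions. At chr3:185842441-185842841, between ETV5, which encodes an ETS-family transcription factor, and DGKG, a diacylglycerol kinase gene, levels were 21.7 and 16.8 CPM in DMSO and 10.6 and 11.4 CPM at 0.5 h (log2 change -0.82, SE 0.14, adjusted p = 0.0562). DMSO library A was the higher control here. The log2 change was -0.98 without DMSO library B (adjusted p = 0.0030) and -0.62 without A (adjusted p = 1.00). At chr12:96515247-96515647 the libraries had 15.4 and 14.3 CPM in DMSO and 7.83 and 8.91 CPM at 0.5 h (log2 change -0.83, SE 0.15, adjusted p = 0.0562). The most negative change of all regions tested, at chr18:75569898-75570298, took 8.95 and 9.98 CPM to 4.98 and 5.32 CPM (log2 change -0.87, SE 0.18, adjusted p = 0.126). Of the lower regions named by p or by size, it had the lowest mean count and the widest SE.

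The remaining 5 lower regions by p had log2 changes from -0.76 to -0.50. They were chr1:31700732-31701132 in NKAIN1 (52.9 and 51.9 CPM to 36.7 and 37.4 CPM), chr1:234918178-234918578 (49.5 and 44.5 to 33.2 and 32.8 CPM), chr5:42855493-42855893 (37.9 and 32.8 to 24.1 and 22.9 CPM), chr9:90195721-90196121 in the kinase gene DAPK1 (19.3 and 15.5 to 9.88 and 10.8 CPM) and chr10:24417348-24417748 in KIAA1217 (29.6 and 27.2 to 17.9 and 19.8 CPM). Their adjusted p ran from 0.0562 to 0.0881. All 12 lower regions kept their direction when any 1 of the 4 libraries was left out, which the rule of no overlap makes nearly certain beforehand. Tested directly, 10 of the 12 were lower at 2 h than at 0.5 h, where 1.28% of all regions were, and the pair that did not pass were those in DAPK1 (further log2 change -0.38, adjusted p = 0.34) and KIAA1217 (-0.45, adjusted p = 0.086).

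**Figure D3:**
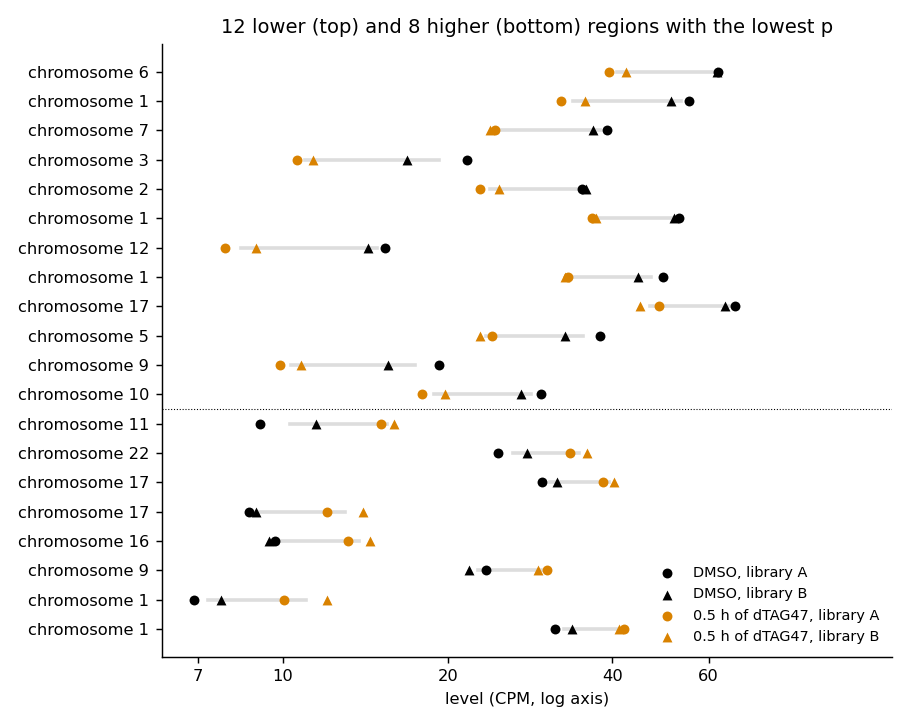
Level in CPM (x axis, log scale) of the 12 lower and 8 higher regions with the lowest p, 1 row each and labelled by chromosome, for the DMSO (black) and 0.5 h (orange) libraries, with circles for A, triangles for B and a grey line joining the group means. The groups do not overlap in any row, as the naming rule requires; the 3 top rows are the regions with an adjusted p under 0.05.

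Among the 8 higher regions named by p, the lowest adjusted p was 0.171. That was chr11:73087120-73087520, which had 9.09 and 11.5 CPM in DMSO and 15.1 and 15.9 CPM at 0.5 h (log2 change 0.61, SE 0.14). This was the highest fitted gain among named regions. At 1 h its log2 change against DMSO was 0.62 (adjusted p = 0.014). At 2 h the level was 12.3 and 12.1 CPM (log2 change from 0.5 h -0.35, adjusted p = 0.30). Its counterpart in 6086 had a 2 h log2 change of 0.19 (adjusted p = 0.41). At chr17:45286076-45286476, near MYL4, which encodes an embryonic and atrial myosin light chain, levels were 29.7 and 31.7 CPM in DMSO and 38.4 and 40.3 CPM at 0.5 h (log2 change 0.36, SE 0.09, adjusted p = 0.235). In 6086 this region had a log2 change of 0.13 at 2 h (adjusted p = 0.33) and had risen by 24 h (log2 change 0.66, adjusted p = 1.6e-10), as had 12.1% of matched regions. Of the 6 of these 8 regions with a counterpart in 6086, 0 had risen at 2 h there, against 1.16% of all matched regions. Within the experiment of the 0.5 h comparison, 6 of the 8 had risen at 2 h against DMSO. The region near MYL4 was among them (log2 change 0.43, adjusted p = 0.0044), and chr11:73087120-73087520 was not (log2 change 0.26, adjusted p = 0.36). That 2 h test shares its DMSO libraries with the 0.5 h comparison, so it is not a separate reading.

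Among the other higher regions, chr22:24184213-24184613 had 24.7 and 28.0 CPM in DMSO and 33.5 and 35.9 CPM at 0.5 h, and chr9:131905809-131906209 had 23.5 and 21.8 against 30.4 and 29.3 CPM. Their log2 changes were 0.40 and 0.39 (adjusted p = 0.194 and 0.271). Without DMSO library B the region on chromosome 22 passed (adjusted p = 0.045), as did the one on chromosome 11 (adjusted p = 0.029), and without DMSO library A their adjusted p was 1.00. The other 4 by p had log2 changes from 0.35 to 0.60 (adjusted p up to 0.278). Named for its size alone, chr2:87753445-87753845 had few reads, at 3.47 and 3.95 CPM in DMSO and 6.17 and 4.91 CPM at 0.5 h (log2 change 0.59, SE 0.24, adjusted p = 0.677). In each of these regions both treated libraries were above both controls, as the naming rule requires. A stretch of chromosome 12 from 57 to 59 Mb stood apart in single libraries. At 0.5 h its 250 regions had 0.13 as their median log2 change, and 19 (7.6%) were higher at an unadjusted p under 0.05, against 2.33% of all regions. The libraries differed within groups there, with medians of -0.13 in DMSO library A and 0.13 in B around their mean, and 0.06 and 0.19 in the 0.5 h libraries. None of the named regions lies in the stretch, but without it 11 regions passed as lower and 0 as higher, and its part in the gains was not tested.

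Experiment 6086 shares no library with the 0.5 h comparison, so the leading regions could be read there in other libraries. Regions of the 2 tables were paired by 50% reciprocal overlap, which matched 29639 of the 40844. Of the 141 lower regions with an unadjusted p under 0.001, 104 could be matched, and 99 of these (95.2%) had fallen at 2 h in 6086, where 5.42% of all matched regions had. These 99 are 6.16% of the 1606 matched regions that had fallen at 2 h in 6086. All 104 had a negative 2 h change there, with -0.94 as the median log2 change, and 102 (98.1%) had fallen at 24 h, against 23.3% of matched regions.

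The share declined gradually down the ranking. Among matched regions it was 20 of 20 for the 30 lower regions with the lowest p, 75 of 78 (96.2%) for the first 100, 215 of 230 (93.5%) for the first 300 and 532 of 740 (71.9%) for the first 1000. Of the 1270 matched regions lower at an unadjusted p under 0.05, 736 (58.0%) had fallen at 2 h in 6086, which is 45.8% of the 1606. Of 732 matched regions higher at an unadjusted p under 0.05, 36 (4.92%) had risen at 2 h in 6086. The share of all matched regions was 1.16%, and these 36 are 10.4% of the 345 that had risen. By sign alone, 558 of the 732 had a positive 2 h change in 6086, against 15179 of all 29639 matched regions. Among the 1270, 1171 (92.2%) had a negative one, against 48.8% of matched regions. None of those 732 had fallen at 2 h in 6086, and none of the 1270 had risen.

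**Figure D4:**
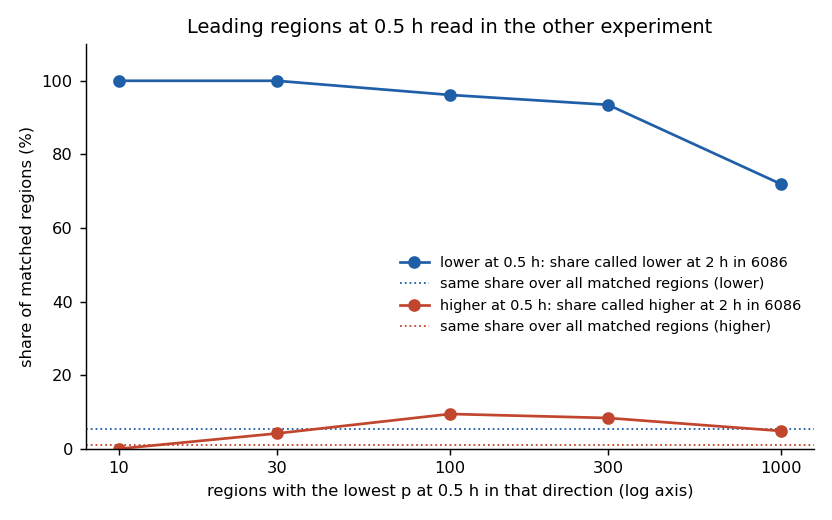
The x axis (log scale) gives how many regions with the lowest p at 0.5 h were taken in each direction, and the y axis the percentage of their matched regions called in the same direction at 2 h in experiment 6086. Lower regions (blue) go from 100% for the first 10 and 30 to 71.9% for the first 1000, higher regions (red) stay under 10%, and dotted lines mark the shares over all matched regions, 5.42% and 1.16%.

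The reading of lower regions in 6086 was similar with any 1 library left out, while the number of regions was not. Without DMSO library A, 37 lower regions had an unadjusted p under 0.001 and all 24 of the matched ones had fallen at 2 h in 6086. Without 0.5 h library A it was 15 of 15, and without 0.5 h library B 23 of 23. Without DMSO library B there were 236 lower and 250 higher regions at that level. Of the matched ones, 152 of 165 lower regions (92.1%) had fallen at 2 h in 6086, whereas 7 of 140 higher regions (5%) had risen.

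For the 141 lower regions, position by chromosome, width and level were tabulated, and no sequence feature was examined. They lay on 21 of the 24 chromosomes with regions. They were 14 of 4608 regions on chromosome 1, 17 of 3461 on chromosome 2 and 4 of 496 on chromosome 18, against 141 of 40844 in all. Their width was the common 401 bp in 97.9%, against 97.8% of all regions. Their median level in DMSO was 22.6 CPM, against 18.5 CPM over all regions. Split into 4 bins of nearly equal size by mean count over the 4 libraries, they numbered 21, 42, 32 and 46 from the lowest bin to the highest, so they were found at all levels.

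The question can be turned round, by taking regions from 6086 alone and reading their 0.5 h change. The 118 regions that had lost at least 2-fold at 2 h in 6086 had a median log2 change of -0.45 at 0.5 h, and all 118 were below DMSO. The groups did not overlap in 113 of them (95.8%), where 19.2% of all regions were lower without overlap. Library by library their median was -0.45 and -0.42 in 0.5 h libraries A and B, against 0.04 and -0.04 in DMSO libraries A and B, each relative to the DMSO mean. Side by side, the 6211 medians of these regions were -0.45 at 0.5 h, -0.77 at 1 h and -1.28 at 2 h, all against the same DMSO libraries.

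Regions with smaller later losses showed smaller early ones. The 484 regions with a 1.5 to 2-fold loss at 2 h in 6086 had a median of -0.30 at 0.5 h (98.3% below DMSO), and the 1004 with a loss under 1.5-fold had a median of -0.19 (94.4% below). At an unadjusted p under 0.05 the shares lower were 91.5%, 61.8% and 32.8% in the 3 classes, from the deepest to the mildest loss, against 4.34% of all regions. Only 2 of the 1606 passed the adjusted threshold, those on chromosomes 6 and 7. DMSO library A lay above B over these regions, by medians of 0.05 and -0.05 around their mean, and without A the median of the 1606 was -0.18 in place of -0.23.

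Regions lost only late were centred near 0 at this time, in a list that leaves out those with an early change in 6086. The 3460 regions that had fallen at 24 h in 6086 with no sign of change at 2 or 4 h (unadjusted p of at least 0.05 at both) had 0.00 as their median 0.5 h change, and 49.0% lay below DMSO, as did 49.1% of all matched regions. The sign of that median changed in some of the alternatives of scaling, matching, 6086 test and libraries. All 6897 matched regions that had fallen at 24 h, early losses included, had a median of -0.05. Of these 6897, 62.9% lay below DMSO and 12.8% were lower at an unadjusted p under 0.05. Of the 3460, 1.62% were lower and 2.69% higher at an unadjusted p under 0.05, against 4.34% and 2.33% of all regions. The 18612 matched regions with no call at any time in 6086 had a median of 0.01. Regions that had risen at 2 h in 6086 had a median of 0.09 at 0.5 h (0.06 without DMSO library A, 0.13 without B), and 127 of the 345 (36.8%) were above both controls in both libraries, against 16.9% of all regions. Their library medians were 0.08 and 0.10 at 0.5 h and -0.03 and 0.03 in DMSO libraries A and B. The 3593 that had risen at 24 h had a median of 0.03.

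**Figure D5:**
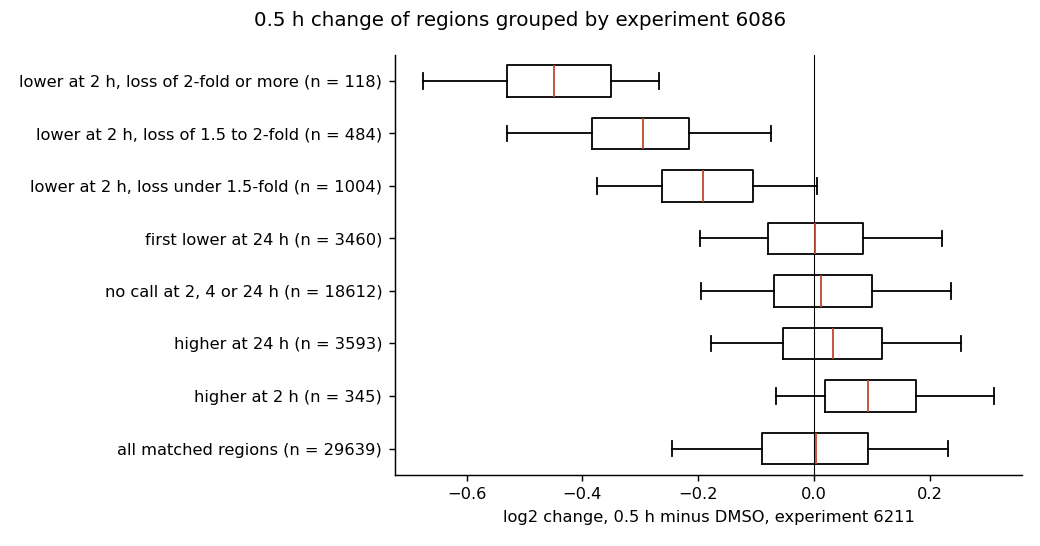
Log2 change at 0.5 h in experiment 6211 (x axis) for matched regions grouped by their calls in experiment 6086 (rows). Boxes run from the 25th to the 75th percentile with the median in red, and whiskers run from the 5th to the 95th percentile; the 3 classes lower at 2 h lie to the left in the order of their 2 h loss, with medians of -0.45, -0.30 and -0.19, while regions first lower at 24 h centre on 0.00.

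The 10 matched regions with the deepest 2 h loss in 6086 show the size of the 0.5 h difference at single loci. All 10 were lower at 0.5 h with no overlap between groups, as were 19.2% of all regions, with log2 changes from -0.74 to -0.46 (median -0.62), while in 6086 their 2 h changes ran from -2.02 to -1.66. The deepest, chr20:40621177-40621577, on the 3′ side of the receptor phosphatase gene PTPRT, had 25.7 and 18.4 CPM in DMSO and 13.1 and 13.5 CPM at 0.5 h (log2 change -0.74, SE 0.14, adjusted p = 0.0881). The DMSO libraries were far apart here, and without library A the change was -0.46.

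At chr5:170008193-170008593, in KCNIP1, which encodes a potassium channel-interacting protein, levels were 21.1 and 23.1 CPM in DMSO and 14.1 and 13.9 CPM at 0.5 h (log2 change -0.65, SE 0.14, adjusted p = 0.110). The control values were close together, and the region had 4.99 and 6.29 CPM at 2 h. At chr11:20791973-20792373, in NELL1, a secreted-protein gene, levels were 43.3 and 33.9 CPM in DMSO and 28.5 and 27.9 CPM at 0.5 h (log2 change -0.46, SE 0.11, adjusted p = 0.171). In both genes every treated library was below every control, and without DMSO library A the change in NELL1 was -0.26. At chr12:66634827-66635227 levels were 19.8 and 21.7 CPM against 13.9 and 13.6 CPM (log2 change -0.59, SE 0.13, adjusted p = 0.131). At chr1:235344260-235344660, in the chromatin regulator gene ARID4B, DMSO libraries had 18.2 and 12.1 CPM and 0.5 h libraries 9.56 and 10.2 CPM (log2 change -0.63, SE 0.19, adjusted p = 0.380). DMSO library B lay nearer to the treated libraries than to library A there, and without library A the log2 change was -0.30.

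Tested directly, all 10 were lower at 2 h than at 0.5 h, as were 1.28% of all regions, with further log2 changes as far as -1.62 in ARID4B (adjusted p = 0.00098) and -1.34 in NELL1 (adjusted p = 8.4e-06). From 0.5 to 1 h 0 of the 10 passed the threshold. Of the 5 regions with the highest 2 h gain in 6086, 2 were higher and 3 lower at 0.5 h. Their log2 changes lay between -0.13 and 0.16, and their adjusted p were 0.917 or above. At 2 h in the experiment of the 0.5 h comparison, only 1 of the 5 had risen against DMSO, while all 10 above had fallen. The 0.5 h values of the 5 therefore cannot show whether gains begin early or late.

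In the authors' deposited table of this comparison, 2 regions had an adjusted p under 0.05, chr6:44628192-44628592 (log2 change -0.61, adjusted p = 0.00561) and chr1:36071004-36071404 (log2 change -0.65, adjusted p = 0.0164). The region on chromosome 7 had a log2 change of -0.66 and an adjusted p of 0.0739 in the authors' deposited table. At every named region the authors' values equal those of the DESeq2 alternative run here on the same counts. The 2 are therefore not separate readings. In simulated counts with 200 changed regions, the test used here found 16% of changes by a ratio of 5 to 4. It found 74% of the 1.5-fold changes and 100% of the 2-fold ones. In the simulation 145 of the changed regions passed, beside 15 false calls, against 3 lower regions in the real comparison. More calls make the adjusted threshold easier to pass, so these shares are likely too high for the real comparison. The simulation also gave all groups the same spread within a region. In the data DMSO replicates differed more than 0.5 h ones, with a chi-square per degree of freedom of 2.58 against 1.41. All but 51 lower and 4 higher regions had fitted changes under 1.5-fold, so single regions that missed the threshold are not shown to be unchanged.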

How the data were processed

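The authors deposited raw counts, which are whole numbers of reads for each region shared by the libraries of an experiment. Without giving roles, the submitters' processing notes list the builds hg19 and dm3 and the tools Bowtie2, deepTools, DESeq2, DiffBind, Genrich 0.6.1 and Trimmomatic 0.32. Neither read shifting nor duplicate handling is described: not given in the sources used here. In the authors' deposited comparison table are log2 fold changes and p-values, per the file headers. Column names gave each library's group; no label links the letters A and B to a replicate number.

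The test was the quasi-likelihood test of edgeR 4.0.16 under R 4.3.3, after TMM scaling and filterByExpr, with all 8 libraries of 6211 in 1 fit (4 residual degrees of freedom). The filter left all 40844 regions in 6211, and experiment 6086 was fitted in the same way. Replicate counts differed by a chi-square of 2.58 (DMSO) and 1.41 (0.5 h) per degree of freedom, more than sampling noise. Regions were paired with bedtools 2.31.1. Log-CPM used a prior count of 2. The test was checked on simulated counts over 40844 regions, of which 200 were changed, with the same spread for all groups within a region. There 145 changed regions passed the adjusted threshold, beside 15 false calls. The false calls were a larger share of all calls than that threshold aims for, so the test was somewhat liberal in this simulation. The 12 lower and 8 higher regions with the lowest p and the 3 largest each way were named among those averaging 30 or more reads and without overlap between groups, with the 10 lowest and 5 highest of 6086 at 2 h. Members and lists were chosen with earlier results of these data known, and the p cut of 0.001 and the classes by size of loss after values were seen. The 16 gene symbols printed beside regions were checked only for their chromosome in the RefSeq table, where 16 matched. Alternatives were DESeq2 1.42.0, 4 other scalings (the loess offset with limma 3.58.1), 2 filters, a fit of the 4 libraries alone, a replicate block, each library left out, and regions outside chromosome 12 from 57 to 59 Mb. Python 3.11.15, pandas 2.3.3 and NumPy 2.4.6 were used for the rest.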

Additional observations from a re-analysis of the deposited data

How the results depend on the processing

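The 3 lower and 0 higher calls stood with no filter, with a mean count of at least 30, with TMM on the upper 25% of regions, with median-ratio size factors and with library size only, and DESeq2 called 2 and 0. The lower count was 6 with a loess offset, 10 with only the 4 libraries compared, 11 with a replicate block and 11 without the chromosome 12 stretch, each including the 3; the cause was not tested. With 1 library left out it ran from 0 to 105, and the higher count from 0 to 109; the lone library of a group is then assumed to vary like the other groups. Deviations of libraries of the same letter had a correlation across regions of -0.05 between DMSO and 0.5 h, 0.21 between DMSO and 1 h, and between -0.05 and 0.09 for the other group pairs, so the letters were not taken to pair the libraries. Medians of the regions lower at 2 h in 6086 stayed between -0.27 and -0.18 in all alternatives run, and those of the regions higher at 2 h were positive in all, from 0.06 without DMSO library A to 0.13 with 6086 calls by DESeq2. The median of the regions first lower at 24 h, 0.0027, changed sign with matching at 1 bp (-0.00095), 6086 calls by DESeq2 (-0.00026), a loess offset (-0.00014) and with 1 library left out (-0.0086 to 0.015). Among named regions 447 of 504 alternative values kept direction and side of the threshold, 39 passed it newly, 10 lost it and 8 changed sign. All 8 sign changes were at 4 regions chosen as higher in 6086. At chr18:39174599-39174999 (log2 change -0.0017) the value was 0.0089 with library size only, 0.016 with TMM on the upper 25% of regions, 0.0037 with the 4 libraries alone and -0.13 to 0.11 with 1 library left out. With 1 library left out the range was -0.095 to 0.25 at chr9:109182853-109183253, -0.10 to 0.42 at chr20:61596516-61596916 and -0.30 to 0.10 at chr6:161450204-161450604. At this depth and with 2 libraries a group, 74% of simulated 1.5-fold changes were found, and 16% of those by a ratio of 5 to 4. The simulation held 200 changed regions, so these shares are likely too high for a comparison with 3 calls.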
